A study of Mus musculus with 4 samples.

Results

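The subject here is a set of 10 genes of the Hippo pathway, followed in cultured tumour-initiating stem-like cells taken from liver tumours of C57BL/6 mice. The genes were chosen by name: the coactivators Yap1 and Wwtr1, the DNA-binding partners Tead1, Tead2 and Tead3, the inhibitory kinases Lats1 and Lats2, and the target genes Ctgf, Cyr61 and Ankrd1. All 10 were found among the 23359 rows of the expression table. One culture received all-trans retinoic acid (ATRA, a vitamin A metabolite that activates retinoic acid receptors) at 5 µg/ml. Another received suberoylanilide hydroxamic acid (SAHA), which inhibits histone deacetylases, at 0.5 µg/ml. One more was given both compounds at once, and the remaining culture received vehicle. Treatment lasted 16 hours, and no time is stated for vehicle. The medium of every culture held serum, EGF and dexamethasone. Each of the 4 groups was 1 library of total RNA depleted of ribosomal RNA, so the differences below lack a check against replicates and carry no p-values.

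In the Hippo pathway, a kinase chain restrains a pair of transcriptional coactivators. The kinases encoded by Stk3 and Stk4 activate Lats1 and Lats2, which phosphorylate YAP (Yap1) and TAZ (Wwtr1) and so keep them out of the nucleus or mark them for degradation. YAP and TAZ that reach the nucleus bind TEAD proteins and raise genes such as Ctgf, Cyr61 and Ankrd1. Lats2 is itself a known target, which closes a feedback loop. In mouse liver the pathway limits organ size, and loss of its kinases leads to overgrowth and tumours. Much of this control acts on the proteins by phosphorylation, which RNA levels do not show.

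The promoters of Yap1, Lats2, Cyr61 and Ankrd1 are shown because these 4 genes differed by at least 2-fold between SAHA and vehicle, in both directions, and each holds the core TEAD motif. The capitals mark GGAATG, or CATTCC where the motif lies on the other strand. Each sequence runs 5′ to 3′ on the gene's own strand, which is the minus strand for all 4, from 250 bases before to 50 bases after the annotated start (RefSeq, GRCm38.p6). The windows are chr9:8004547-8004846 for Yap1, chr14:57746074-57746373 for Lats2, chr3:145649936-145650235 for Cyr61 and chr19:36119795-36120094 for Ankrd1.
Yap1: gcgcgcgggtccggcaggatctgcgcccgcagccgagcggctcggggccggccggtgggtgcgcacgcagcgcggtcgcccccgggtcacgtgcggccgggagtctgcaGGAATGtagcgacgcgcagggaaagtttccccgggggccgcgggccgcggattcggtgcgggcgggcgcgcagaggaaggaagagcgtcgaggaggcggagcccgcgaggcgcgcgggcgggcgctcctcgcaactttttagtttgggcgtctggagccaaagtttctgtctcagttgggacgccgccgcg
Lats2: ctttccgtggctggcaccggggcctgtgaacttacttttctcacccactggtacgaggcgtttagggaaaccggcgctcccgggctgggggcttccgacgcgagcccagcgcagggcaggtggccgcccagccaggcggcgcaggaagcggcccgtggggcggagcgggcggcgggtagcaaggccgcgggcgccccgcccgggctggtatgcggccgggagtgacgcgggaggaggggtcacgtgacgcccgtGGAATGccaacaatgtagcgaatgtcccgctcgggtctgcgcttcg
Cyr61: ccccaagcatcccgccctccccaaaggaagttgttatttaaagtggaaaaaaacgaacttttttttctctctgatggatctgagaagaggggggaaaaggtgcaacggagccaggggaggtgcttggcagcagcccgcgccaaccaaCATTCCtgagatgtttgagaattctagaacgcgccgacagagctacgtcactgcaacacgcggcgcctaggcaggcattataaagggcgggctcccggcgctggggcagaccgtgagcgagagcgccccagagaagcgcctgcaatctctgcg
Ankrd1: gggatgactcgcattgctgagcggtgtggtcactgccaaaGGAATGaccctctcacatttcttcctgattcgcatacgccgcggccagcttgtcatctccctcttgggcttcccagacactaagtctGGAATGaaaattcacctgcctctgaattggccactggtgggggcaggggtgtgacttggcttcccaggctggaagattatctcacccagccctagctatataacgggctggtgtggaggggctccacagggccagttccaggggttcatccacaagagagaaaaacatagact

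Ankrd1 held 2 matches, with first bases 210 and 123 bases before the start. Cyr61 held 1 match 103 bases before the start, Yap1 held 1 match 141 bases before it, and Lats2 held 1 match with its first base 5 bases past the start and none in its other window. Promoter sequences were at hand for 8 of the 10 genes, with 12 start windows among them, and not for Tead1 or Ctgf. Of these 8 genes, 6 held the motif in at least 1 window, while Tead2 and Lats1 did not. Some genes have several windows, which gives them more chances of a match. Among the 7997 windows of this length that belong to the counted genes described below, 11.6% held the motif. That is a share of windows and not of genes, so it is no like background for 6 of 8 genes. Neither the AP-1 motif TGANTCA (4.80% of the same 7997 windows) nor a CArG box (1.39%), each searched on both strands, was found in the 12 windows. A match to 6 letters is a description of the sequence and not a measured binding site.

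**Figure D1:**
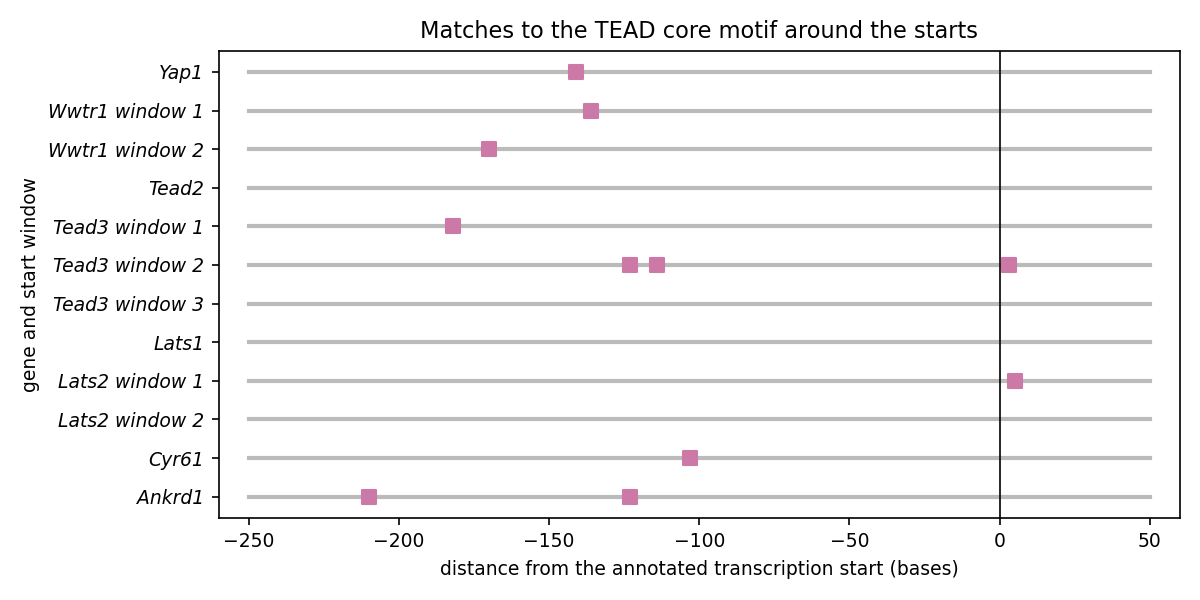
Matches to GGAATG or CATTCC (squares) in the 12 start windows of the 8 Hippo genes with a promoter sequence, by distance of the first matched base from the annotated start in bases. Ankrd1 has 2 matches and Cyr61 has 1, and the windows of Tead2 and Lats1 have none.

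The authors deposited levels as FPKM, which counts fragments per kilobase of transcript and corrects for library depth. Differences are log2 ratios of FPKM + 1, and a gene was called higher or lower where this ratio was 1 or more in size, a 2-fold difference on that scale. A fold given in the text divides one FPKM value by another, with nothing added. A gene was counted if its mean over the 4 libraries was at least 1 FPKM, which 8616 genes reached. Of the 10 Hippo genes 9 did, while Tead3 had a mean of 0.988 FPKM, and its values are given all the same. Ankrd1, with a mean of 1.24 FPKM, passed through its ATRA and vehicle libraries, as did Yap1, with a mean of 2.20 FPKM. A gene that passes in this way is lower with SAHA by the filter itself. The same filter set the shares over all counted genes. The median of low values within a fixed range was taken as 1 fragment. On that basis 1 FPKM over 1 kilobase stood for an estimated 96.2 fragments with ATRA and 97.3 with SAHA. It stood for 102 with both compounds and 97.4 with vehicle. The same range was used for every library, which by itself brings these numbers near each other. Intervals given below come from these estimated fragments at the 95% level and cover counting error only.

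The libraries differed in other ways. The single row Gm20594, also named Mtrnr2l in RefSeq, took up 16.6% of the summed FPKM with ATRA, 33.9% with SAHA and 10.3% with both compounds, against 18.0% with vehicle. Of 7 hepatocyte markers 0 reached a mean of 1 FPKM, and their sum was 0.174 to 0.438 FPKM in the 4 libraries. The bile duct markers Krt19 and Epcam were at or below 0.778 FPKM, while Krt7, Sox9 and Spp1 passed. Spp1 was at 939 FPKM in the SAHA library and 336 with vehicle, Krt7 at 1.83 and 2.99, and Sox9 at 0.910 and 1.19. Among stellate and fibroblast markers Vim, Des and Acta2 passed, 3 of 9. The macrophage marker Cd68 (1 of 6 in its list) and the endothelial marker Flt1 (1 of 6) also passed, and 0 of 6 lymphocyte markers did. Summed over each list, macrophage markers were at 5.31 FPKM with SAHA against 1.96 with vehicle, and endothelial markers at 0.909 against 2.84. Stellate and fibroblast markers summed to 342 FPKM with SAHA against 601 with vehicle. The part of these differences in the results below was not tested. In bulk RNA, fewer cells of a type and less RNA per cell cannot be told apart.

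The order of the 10 genes by level differed between the SAHA and the vehicle library. With SAHA, Cyr61 (18.9 FPKM) and Ctgf (15.6) came first, Wwtr1 (5.47) followed, and Yap1 (0.505) and Ankrd1 (0.129) came last. With vehicle, Wwtr1 was the most abundant at 10.2 FPKM, followed by Cyr61 at 7.40 FPKM. Tead2 (5.08), Lats1 (4.98), Ctgf (4.70), Lats2 (4.27) and Yap1 (4.20) then lay close together, and with 1 library their order cannot be set against any replicate spread. Tead1 (2.90), Ankrd1 (2.59) and Tead3 (0.947) were the lowest with vehicle.

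**Figure D2:**
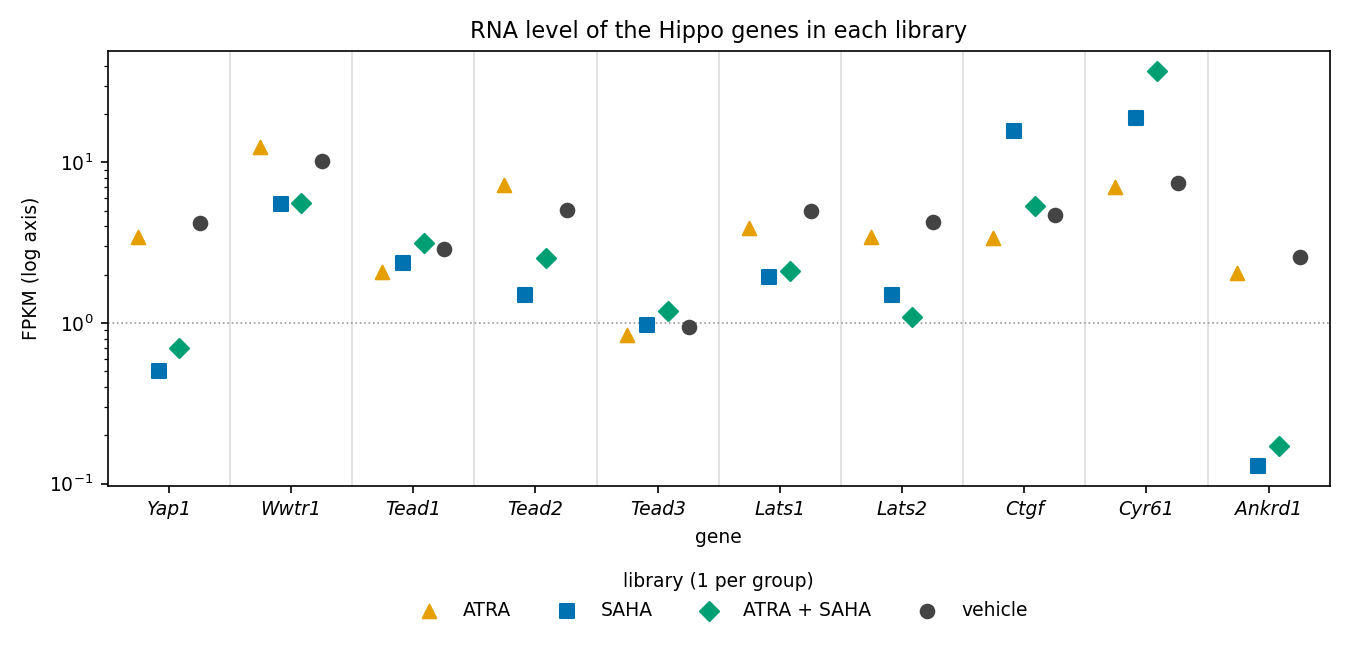
FPKM of the 10 Hippo genes (log axis) in the ATRA, SAHA, ATRA + SAHA and vehicle libraries, 1 point per library, with a dotted line at 1 FPKM. Yap1 and Ankrd1 lie under 1 FPKM in both libraries with SAHA, and Cyr61 reaches 37.3 FPKM with both compounds.

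The coactivator Yap1 (ENSMUSG00000053110, chromosome 9, 7932001 to 8004596, minus strand, mm10) was low wherever SAHA was present. It was at 3.41 FPKM with ATRA, 0.505 with SAHA and 0.694 with both compounds, against 4.20 with vehicle. Both libraries with SAHA lay far below both libraries without it. Yap1 was 8.32-fold lower with SAHA than with vehicle (counting interval 7.20 to 9.63), a log2 ratio of -1.79, and 6.05-fold lower with both compounds (-1.62). With ATRA alone its log2 ratio was -0.24. An estimated 204 fragments stood behind the Yap1 value of the SAHA library and 1696 behind that of the vehicle library.

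Its paralog Wwtr1, which encodes TAZ (chromosome 3, 57455644 to 57575910, minus strand), moved less. Wwtr1 was at 12.5 FPKM with ATRA, 5.47 with SAHA and 5.60 with both compounds, against 10.2 with vehicle. The libraries with SAHA were again the lower pair, but the log2 ratios of -0.80 with SAHA and -0.77 with both compounds stayed short of the 2-fold mark. Against ATRA alone, the combination reached -1.04. The sum of Yap1 and Wwtr1 was 15.9 FPKM with ATRA, 5.97 with SAHA and 6.29 with both compounds, against 14.5 with vehicle. Yap1 made up 8.45% of that sum with SAHA and 11.0% with both compounds, against 29.1% with vehicle. Wwtr1 was accordingly 10.8 times Yap1 with SAHA and 8.06 times with both compounds, against 2.44 times with vehicle.

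The TEAD genes, which encode the DNA-binding partners of YAP and TAZ, did not share a pattern. Tead2 (chromosome 7, 45215753 to 45233619, plus strand) was at 7.22 FPKM with ATRA, 1.49 with SAHA and 2.55 with both compounds, against 5.08 with vehicle. It was 3.41-fold lower with SAHA, with log2 ratios of -1.29 for SAHA and -0.77 for the combination. Tead2 had the highest ATRA ratio of the 10 genes, 0.43, which is short of the mark. Tead1 (chromosome 7, 112679320 to 112906805, plus strand) was at 2.07 FPKM with ATRA, 2.35 with SAHA and 3.16 with both compounds, against 2.90 with vehicle. Tead3 (chromosome 17, 28331673 to 28350805, minus strand) was at 0.840, 0.975 and 1.19 FPKM in the same treated libraries, against 0.947 with vehicle. Neither Tead1 nor Tead3 passed the mark in any of the 5 comparisons, and their highest value was 1.53 times the lowest for Tead1 and 1.42 times for Tead3. Tead4, the remaining family member and not one of the 10, was at 1.86, 0.918 and 0.884 FPKM against 2.08 with vehicle, short of the mark at -0.69 with SAHA. Over the 4 TEAD genes, Tead2 held 25.9% of the summed FPKM with SAHA, against 46.1% with vehicle, and Tead1 held 41.1% against 26.3%.

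The kinase genes Lats1 and Lats2, whose products inhibit YAP and TAZ, were both lower with SAHA. Lats1 (chromosome 10, 7681209 to 7716461, plus strand) was at 3.91 FPKM with ATRA, 1.94 with SAHA and 2.11 with both compounds, against 4.98 with vehicle. Lats2 (chromosome 14, 57689662 to 57746123, minus strand) was at 3.42 FPKM with ATRA, 1.49 with SAHA and 1.10 with both compounds, against 4.27 with vehicle. For both genes the 2 libraries with SAHA lay below the 2 without it. The fold was 2.56 lower for Lats1 with SAHA (log2 ratio -1.02) and 2.87 lower for Lats2 (-1.08), just past the mark. With both compounds Lats2 stood at -1.33, while Lats1 stood at -0.94 and was not called. Setting the median log2 ratio of counted genes to 0 (centring) moves all SAHA ratios up by 0.12, and Lats1 at -0.90 and Lats2 at -0.96 then missed the mark with SAHA.

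Ankrd1 encodes an ankyrin repeat protein first known from heart muscle and is a widely used readout of YAP activity (chromosome 19, 36111965 to 36119844, minus strand). It was at 2.06 FPKM with ATRA, 0.129 with SAHA and 0.171 with both compounds, against 2.59 with vehicle. The values with SAHA correspond to an estimated 25 fragments for SAHA and 35 for the combination, against 509 with vehicle. Ankrd1 was 20.1-fold lower with SAHA (counting interval 13.4 to 30.0) and 15.1-fold lower with both compounds (10.7 to 21.3), the widest spread among the 10 genes. Its log2 ratios of -1.67 and -1.61 understate this because FPKM + 1 flattens low values. With a pseudocount of 0.1 no call of Ankrd1 changed. The profile of Ankrd1 over the 3 comparisons with vehicle lay close to that of Yap1, with a root mean square difference of 0.07 on the log2(FPKM + 1) scale. It was 0.65 with a pseudocount of 0.1, so the closeness holds on the first scale and not on the second. All 3 comparisons share the vehicle library.

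Cyr61 and Ctgf, which encode secreted matrix-associated proteins of the CCN family, went the other way with SAHA. Ctgf (chromosome 10, 24595442 to 24598682, plus strand; Ccn2 in current naming) was at 3.37 FPKM with ATRA, 15.6 with SAHA and 5.38 with both compounds, against 4.70 with vehicle. The SAHA library alone stood out, with a fold of 3.33 over vehicle (counting interval 3.11 to 3.56) and a log2 ratio of 1.55. Cyr61 (chromosome 3, 145646971 to 145649985, minus strand; Ccn1 in current naming) was at 7.06 FPKM with ATRA, 18.9 with SAHA and 37.3 with both compounds, against 7.40 with vehicle. Here both libraries with SAHA were high, 2.55-fold with SAHA (1.24 on the log2 scale) and 5.04-fold with both compounds (2.19). Adding ATRA to SAHA therefore went with less Ctgf and more Cyr61. Cyr61 was 1.21 times Ctgf with SAHA and 6.93 times Ctgf with both compounds, against 1.57 times with vehicle. Of the other CCN genes, Nov, Wisp1, Wisp2 and Wisp3 stayed at or below 0.381 FPKM in all 4 libraries.

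With ATRA alone, 0 of the 10 genes passed the mark, where 2.11% of counted genes did (0.917% higher and 1.20% lower). Their log2 ratios lay between -0.38 for Ctgf and 0.43 for Tead2, and 8 of 10 were below 0. With SAHA alone, 2 of 10 were higher (Ctgf and Cyr61), against 7.88% of counted genes. In the same comparison 5 of 10 were lower (Yap1, Tead2, Lats1, Lats2 and Ankrd1), against 16.0% of counted genes. With both compounds, 1 of 10 was higher (Cyr61; 11.1% of counted genes) and 3 were lower (Yap1, Lats2 and Ankrd1; 12.6%). The median log2 ratio of the 10 genes was -0.23 with ATRA, -0.91 with SAHA and -0.77 with both compounds. The medians of all counted genes were -0.00, -0.12 and 0.04 in these comparisons. All 3 comparisons use the same vehicle library. With each column rescaled to a total of 1000000, Wwtr1, Tead2 and Lats1 also passed the mark in the combination, at -1.04, -1.11 and -1.33. Rescaling also took the lower calls over all counted genes in that comparison from 1089 to 1781.

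**Figure D3:**
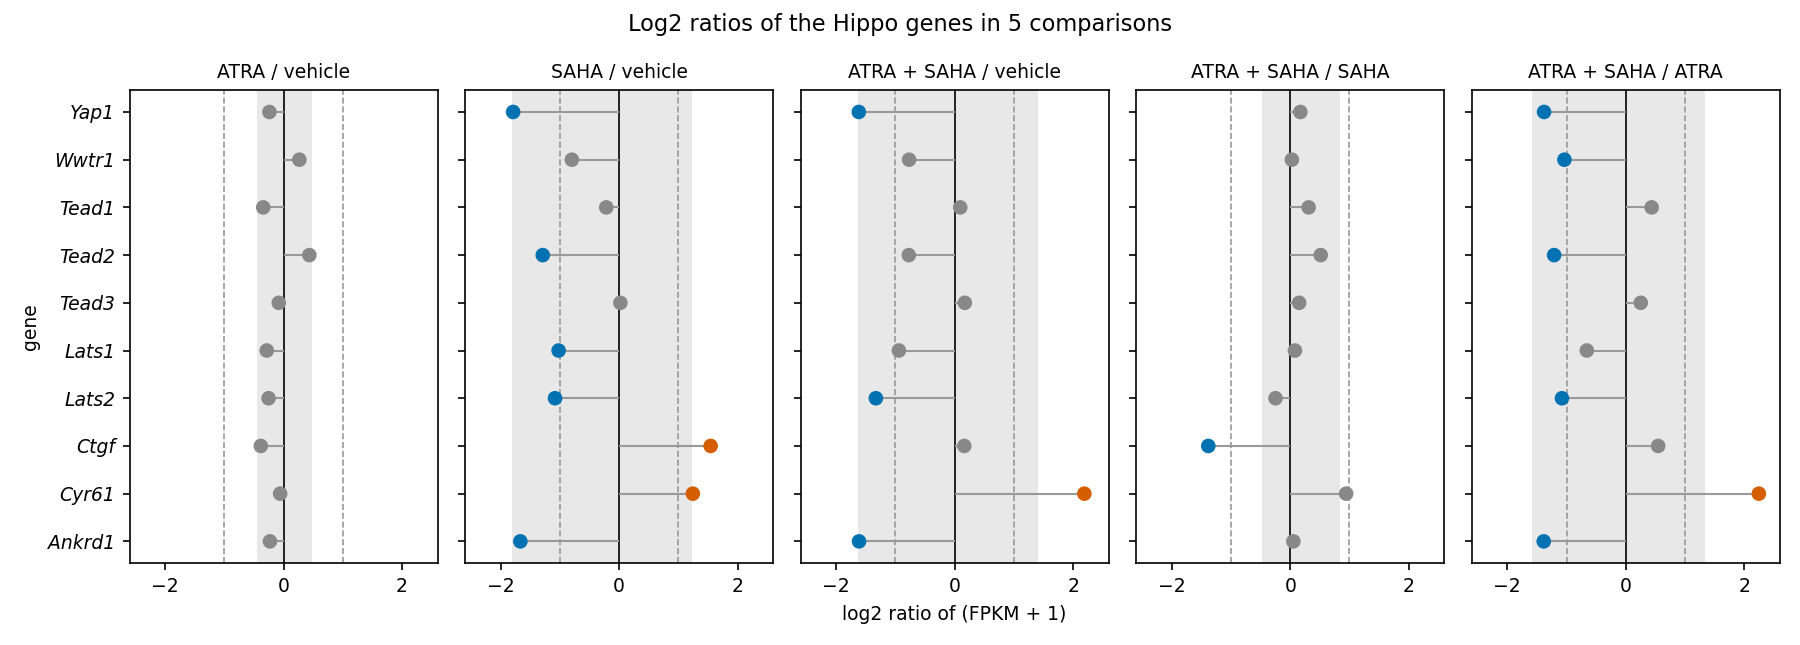
Log2 ratios of FPKM + 1 for the 10 Hippo genes in 5 comparisons. Dashed lines mark 2-fold, orange and blue points are called higher and lower, and the grey band holds the middle 90% of counted genes. No gene passes the mark with ATRA against vehicle, and Ctgf alone does when the combination is set against SAHA.

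The comparison of both compounds with SAHA alone asked what ATRA added, and it does not use the vehicle library. Ctgf was 2.91-fold lower with both compounds than with SAHA (5.38 against 15.6 FPKM, log2 ratio -1.38), and it was the 1 gene of 10 called lower, against 0.929% of counted genes (3.97% in either direction). None of the 10 was called higher, against 3.04% of counted genes, and Cyr61 came nearest at 0.94. ATRA without SAHA gave log2 ratios of -0.38 for Ctgf and -0.06 for Cyr61. Yap1 (0.17), Wwtr1 (0.03), Lats1 (0.08) and Ankrd1 (0.05) lay near 0 between the combination and SAHA. The median of all counted genes was 0.14 in this comparison, and after centring Wwtr1, Lats1 and Ankrd1 stood at -0.13, -0.08 and -0.11, so that their sign turned.

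Set against ATRA alone, the combination showed what SAHA added. Of the 10 genes 5 were lower (Yap1, Wwtr1, Tead2, Lats2 and Ankrd1; 11.9% of counted genes) and 1 was higher (Cyr61; 10.5%). The ratios were -1.38 for Yap1, -1.38 for Ankrd1, -1.21 for Tead2, -1.08 for Lats2 and 2.25 for Cyr61. Ctgf stood at 0.55, against 1.55 for SAHA set against vehicle.

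Additivity was examined by adding the log2 ratios of the single compounds and taking the total from the ratio of the combination. This departure was -0.998 for Ctgf and 1.003 for Cyr61, on either side of the 2-fold mark in size, in opposite directions. Cyr61 was the 1 gene called, against 4.69% of counted genes with a departure of 1 or more, 1.73% with -1 or less and 6.42% in either direction. For the other 8 genes the departure lay between -0.24 for Wwtr1 and 0.65 for Tead1, and the median of all counted genes was 0.15. After centring, Ctgf stood at -1.16 and Cyr61 at 0.84, so the call passed to the other gene.

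**Figure D4:**
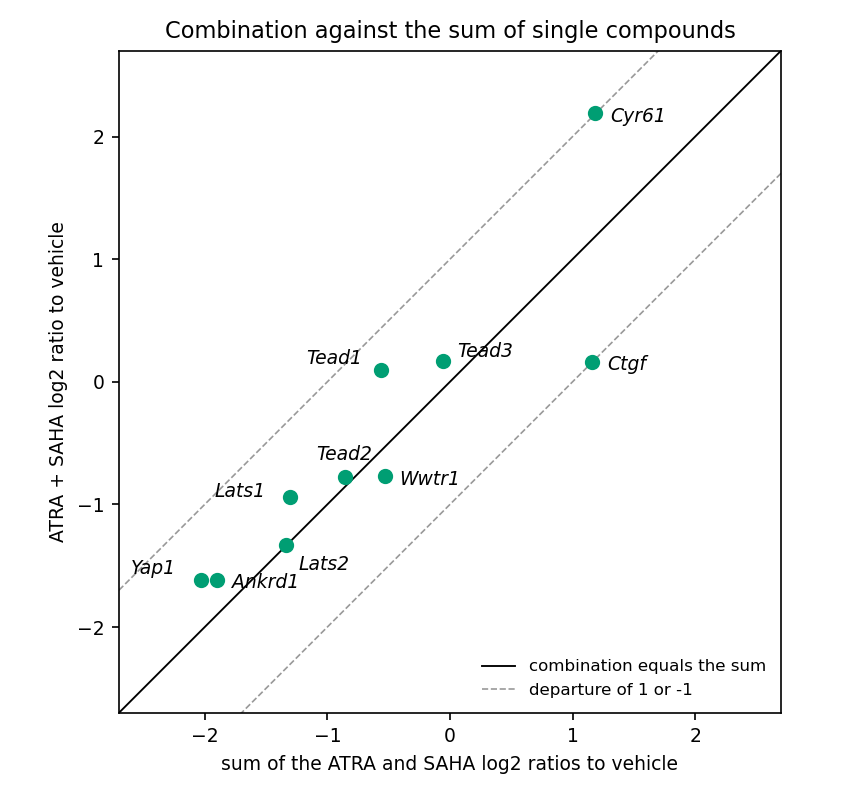
Combination log2 ratio to vehicle (vertical) against the sum of the ATRA and SAHA log2 ratios (horizontal) for the 10 Hippo genes. Cyr61 lies on the upper dashed line, at a departure of 1.003, and Ctgf on the lower one, at -0.998.

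The wider pathway was described by lists from general knowledge, chosen with earlier results of these data known. In the upstream kinase list, 14 of 18 genes in the table were counted, and with SAHA 2 were higher and 3 lower, where 7.88% of all counted genes were higher and 16.0% lower. Stk4, which encodes the kinase MST1, was at 6.18 FPKM with SAHA and 5.84 with both compounds, against 2.20 with vehicle. Its paralog Stk3 (MST2) was at 4.43 and 5.80 FPKM against 5.67 and was not called. The scaffold gene Sav1 was at 2.79 and 2.81 FPKM against 7.15, a log2 ratio of -1.10 with SAHA that centring brought to -0.98. Map4k4 and Map4k5, kinases that can also act on Lats proteins, were lower, at 4.16 FPKM against 13.1 and at 0.590 against 2.81 with SAHA. The kinase gene Taok3 was at 3.14 FPKM against 0.888. Taok3 lay below 1 FPKM in both libraries without SAHA, and Map4k5 lay below 1 FPKM in both libraries with it. Each passed the filter only through its other libraries, so its direction is no separate support. Nf2, which encodes the tumour suppressor merlin, was at 2.34 FPKM with SAHA and 3.29 with vehicle, a ratio of -0.36.

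Of the polarity and adaptor genes, 24 of 33 in the table were counted, with 2 higher and 7 lower with SAHA and 2 higher and 6 lower with both compounds. Over all counted genes 7.88% were higher and 16.0% lower with SAHA, and 11.1% and 12.6% with both. Rassf1, which encodes a scaffold that binds MST kinases, was at 0.642 FPKM with SAHA and 1.32 with both compounds, against 4.36 with vehicle. Amotl1, whose product binds YAP, was at 1.86 and 2.29 FPKM against 6.61. Frmd6, which encodes a FERM domain protein, was higher at 11.4 and 14.7 FPKM against 4.18, and the kinase gene Mark4 was at 3.66 and 5.23 against 1.20. Amotl2, an angiomotin family gene and YAP target, was at 3.44 and 3.59 FPKM against 7.03, short of the mark. Ptpn14, among the genes called lower with SAHA, lay below 1 FPKM in both libraries with SAHA. It passed the filter only through the libraries without it.

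Among nuclear partners, 12 of 16 were counted, and with SAHA 0 were higher, 3 were lower (16.0% of all counted genes) and 12 had a ratio below 0. Some of the 12, among them Tead4, Vgll4 and Runx1, lay below 1 FPKM in both libraries with SAHA. They passed the filter only through the libraries without it, so their direction is no separate support. The AP-1 genes Fosl1 and Jun were at 2.04 FPKM against 16.0 and at 3.54 against 8.09 with SAHA. Jun only just passed the mark with SAHA, and its ratio was -0.88 after centring. Runx1, which encodes a transcription factor, was at 0.846 FPKM against 3.29. Vgll4, whose product competes with YAP for TEAD, was at 0.618 FPKM with SAHA and 0.670 with both compounds, against 2.12 with vehicle. Its ratio of -0.95 with SAHA was short of the mark with FPKM + 1, and it was -1.63 with a pseudocount of 0.1. That pseudocount put 10 of the 12 past the mark with SAHA and 9 with both compounds, against 35.3% of all counted genes in each comparison.

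A list of 22 genes used as readouts of YAP and TAZ holds Lats2, Ctgf, Cyr61 and Ankrd1 and 18 others, of which 13 were counted. With SAHA 6 of these 13 were lower and 0 higher, where 16.0% and 7.88% of all counted genes were. Their median log2 ratio was -0.86, against -0.12 for all counted genes. The combination had 3 lower and 0 higher (12.6% and 11.1% of all counted genes), and its median was -0.81. With a pseudocount of 0.1, 11 of the 13 passed the mark with SAHA and 9 with both compounds, again against 35.3% of all counted genes. Myof, the gene of the membrane repair protein myoferlin, was at 1.32 FPKM with SAHA and 2.30 with both compounds, against 17.3 with vehicle. The receptor tyrosine kinase gene Axl was at 15.7 and 15.0 FPKM against 46.6, and Dock5, a guanine exchange factor gene, at 0.788 and 0.711 against 3.57. Foxf2, a forkhead factor gene, was at 0.479 and 0.779 FPKM against 2.13. Ptpn14, a phosphatase gene, stands in this list and in the adaptor list, as does Amotl2. Dock5, Foxf2 and Ptpn14, among others, lay below 1 FPKM in both libraries with SAHA. They passed the filter only through the libraries without it. Gadd45a, a growth arrest gene, was at 0.876 FPKM with SAHA and 9.06 with both compounds, against 8.38 with vehicle. With ATRA alone 0 of the 13 passed the mark, with a median of -0.25. Ctgf and Cyr61 were the only genes of the 17 counted genes of the whole list called higher with SAHA.

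**Figure D5:**
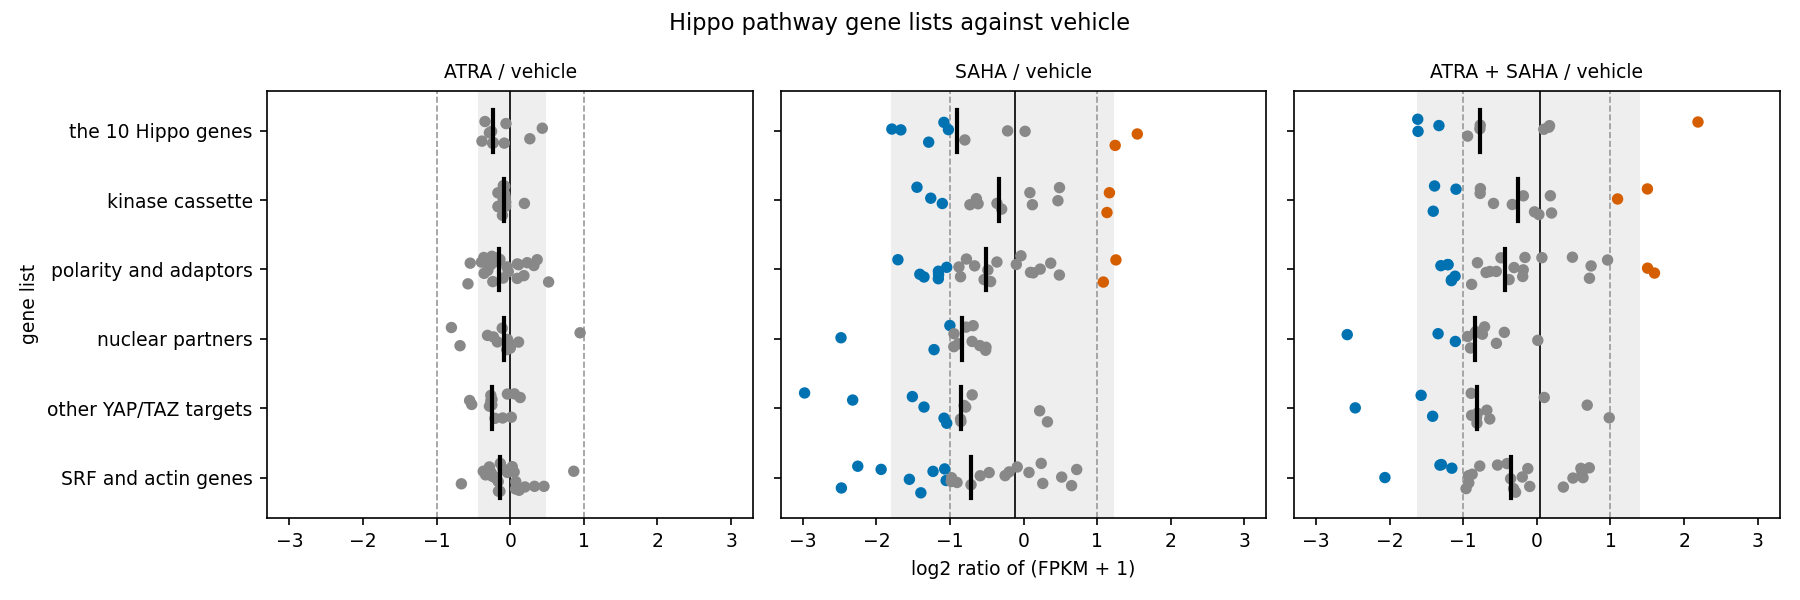
Log2 ratios of FPKM + 1 against vehicle for the 10 Hippo genes and the counted genes of 5 lists without them, 1 point per gene, with short black bars at list medians. The long line is the median of all counted genes, the grey band holds their middle 90%, and blue and orange points are past the dashed 2-fold marks. With SAHA the other YAP/TAZ targets have a median of -0.86 and none is called higher.

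The genes nearest in pattern were found over the 3 comparisons with vehicle, as the root mean square difference of log2(FPKM + 1) ratios among counted genes. This scale compresses low values. Nearest to Yap1 were Tfap4, a transcription factor gene (0.04), Syncrip, an RNA-binding protein gene (0.05), and Zmynd11, a chromatin reader gene (0.05). Tfap4 was at 0.202 FPKM with SAHA and 3.10 with vehicle, 15.3-fold lower, where Yap1 was 8.32-fold lower. The differences from Yap1 with a pseudocount of 0.1 were 0.37 for Tfap4, 0.51 for Syncrip and 0.22 for Zmynd11. Nearest to Ctgf were Gcnt1 (0.20), Ube4a (0.20) and Zfp672 (0.23), all further off than the neighbours of Yap1 on the log2(FPKM + 1) scale. With a pseudocount of 0.1 their differences from Ctgf were 0.15, 0.36 and 0.21, so that order did not hold there. Nearest to Cyr61 were BC005624 (0.10), Pop5 (0.13) and Mrps26 (0.14), while Ctgf lay 1.20 from Cyr61. With a pseudocount of 0.1 BC005624 lay 0.18, Pop5 0.10 and Mrps26 0.12 from Cyr61.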

How the data were processed

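RNA was sequenced from 4 cultures, 1 library per group, and no sample was left out. The submitters' processing notes name Trimmomatic 0.32, Cuffdiff and the build mm10. Not given in the sources used here were the aligner, the gene annotation, the use of strand in counting and the scaling of libraries. Per the file headers, each gene has 1 FPKM value per library. Fragment numbers were estimated over genes with 1 GENCODE M21 transcript of 1000 to 4000 bases. The median of FPKM times length within a fixed low range was taken as 1 fragment. The next median lay at 1.92 to 2.00 times the first. Its range was itself set from the first, so it does not check the estimate. Counting intervals use a normal approximation on the log ratio, with the mean length of each gene's RefSeq-matched coding transcripts.

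Ratios were computed as log2(FPKM + 1) differences with Python 3.11.15 and pandas 2.3.3. The same rule was run over all 8616 counted genes. The genes, lists and rules were chosen with earlier results of these data known. The text names all 10 Hippo genes, 8 further pathway genes whatever their values, up to 4 others per list with the largest called ratio with SAHA or both compounds, and the 3 nearest patterns of 3 genes. Marker genes, Nov, Wisp1, Wisp2, Wisp3, Ptpn14, Gm20594, F3 and Nuak2 were named besides these, the last 4 after their values were seen. None of the 10 loci overlaps another row of the table. Alternatives were a pseudocount of 0.1, no filter, a mean of at least 5 FPKM, median centring and rescaling each library to a total of 1000000 (TPM).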

Additional observations from a re-analysis of the deposited data

Results flagged for a closer look

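On the log2(FPKM + 1) scale, among the 9 counted Hippo genes and the counted genes of the 6 pathway lists, 93 in all, Gadd45a was the 1 gene for which a compound's effect had opposite signs with and without the other compound and passed the 2-fold mark at least once. For ATRA the log2 ratio was 2.42 with SAHA present and -0.21 without it. For SAHA the ratio was 0.31 with ATRA present and -2.32 without it. The ratios in each pair share no library, and the difference between them was not tested. Each rests on single libraries. Fhl2 joined it with a pseudocount of 0.1, with an ATRA ratio of 1.08 with SAHA present and -0.35 without it.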

How the results depend on the processing

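The 60 log2 values of the 10 Hippo genes (5 comparisons and the departure from additivity) were recomputed under 5 alternatives, and no called value turned its sign. With a pseudocount of 0.1, 58 kept their side of the 2-fold mark and 2 passed it. After median centring 56 kept it, 3 lost it and 1 gained it, and after rescaling to 1000000 (TPM) 55 kept it, 1 lost it and 4 gained it. The filters do not alter a gene's own value. Small ratios that were not called turned sign in 12 cases.

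The number of Hippo genes called in the combination against vehicle was 7 after rescaling, against 4. With a pseudocount of 0.1 the departure from additivity was called for 2 of them, against 1. Over all counted genes it was called for 11.7% in place of 6.42%. With a mean of at least 5 FPKM, Wwtr1, Ctgf and Cyr61 remained, so that 2 were called with SAHA against vehicle in place of 7, 1 in the combination against vehicle in place of 4, and 2 in the combination against ATRA in place of 6. Their median log2 ratio was then 1.24 with SAHA and 0.55 in the combination against ATRA, in place of -1.02 and -1.04 for the 9 counted genes, since the genes left are others.

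Counts over all genes moved too. With a pseudocount of 0.1, 675 genes in place of 342 were called in the combination against SAHA, 2933 in place of 1930 against ATRA, and 1012 in place of 553 for the departure. With a mean of at least 5 FPKM the counts were 66 in place of 182 with ATRA, 933 in place of 2060 with SAHA, 911 in place of 2043 with both, 205 in place of 342 against SAHA, 854 in place of 1930 against ATRA and 277 in place of 553 for the departure. After rescaling, 834 departures were called. Centring took the calls with SAHA from 679 higher and 1381 lower to 881 and 1157, and the higher share from 33.0% to 43.2%. In the combination against SAHA the higher share was 61.7% after centring and 51.9% after rescaling, in place of 76.6%. Rescaling took it to 31.9% with ATRA, in place of 43.4%, and to 35.2% with both, in place of 46.7%. A mean of at least 5 FPKM took the ATRA share to 56.1%.

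Calls in the lists are counted here in either direction. A pseudocount of 0.1 called 10 nuclear partners with SAHA in place of 3, 9 with both in place of 3 and 1 with ATRA in place of 0. It called 11 other targets with SAHA in place of 6, 9 with both in place of 3 and 9 in the combination against ATRA in place of 3. It called 11 adaptor genes against ATRA in place of 5 and 1 actin gene against SAHA in place of 0. Over all counted genes that pseudocount called 35.3% with SAHA, 35.3% with both and 3.17% with ATRA. It called 34.0% in the combination against ATRA and 7.83% against SAHA. With a mean of at least 5 FPKM, 1 kinase was called with SAHA, with both and against ATRA, in place of 5 each. The same filter left 4 adaptor genes in place of 9 with SAHA, 4 in place of 8 with both and 3 in place of 5 against ATRA. It left 1 nuclear partner in place of 3 with SAHA and with both, 2 in place of 4 against ATRA, and 3 targets in place of 6 with SAHA. After rescaling, nuclear partners had 1 call with ATRA, 6 with SAHA and 9 with both, targets 10 with both and 9 against ATRA, actin genes 9 with both in place of 4, and adaptor genes 9 against ATRA. In TPM the added 1 weighs less than in FPKM. The cause of the other differences was not tested. The use of a pseudocount of 0.1 for the nearest patterns and for Fhl2 was chosen after seeing the data. No paired analysis was possible because each group has 1 library, and for the same reason no replicate could be left out.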

Other observations

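Genes of the actin cytoskeleton and of the serum response factor pathway, which shares targets with YAP and TAZ, were also looked at. Of 26 listed, 23 were counted, and with SAHA 8 were lower and 0 higher, where 16.0% and 7.88% of all counted genes were. The median log2 ratio was -0.71, against -0.12 for all counted genes. The combination had 4 lower and 0 higher (12.6% and 11.1% of all counted genes), and its median was -0.36. The tropomyosin gene Tpm1 was at 218 FPKM with ATRA, 20.7 with SAHA and 27.8 with both compounds, against 120 with vehicle. Tpm4 was at 14.4 FPKM with SAHA and 28.4 with both compounds, against 72.3 with vehicle, and Tpm2 at 4.16 and 5.15 against 14.1. Fhl2, which encodes a LIM domain coregulator, was at 5.56 and 11.9 FPKM against 24.1. With ATRA alone 0 of the 23 passed the mark, and the highest ratio was that of Tpm1, 0.86.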
